A study of Mus musculus with 62 samples.

Results

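The imprinted genes described here were 33 mouse genes in 15 imprinted clusters, and the chromatin sites counted for them were those overlapping a gene body or the 10 kb on either side of it (mm10, GENCODE M21). Of 1743368 sites listed in 14 tables of differential CUT&Tag signal, 2878 met this rule, in 25 merged windows of 2.64 Mb together. The clusters with several genes were H19 and Igf2, then Kcnq1ot1, Kcnq1, Cdkn1c and Phlda2, then Peg3, Usp29 and Zim1, then Snrpn, Ndn, Magel2, Mkrn3 and Peg12, then Dlk1, Meg3, Rtl1, Rian and Mirg, then Igf2r, Airn and Slc22a3, and the pairs Peg10 with Sgce and Gnas with Nespas. Mest, Nnat, Plagl1, Impact, Grb10, Zdbf2 and Trappc9 stood alone.

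The libraries were made from bone marrow HSPCs of C57BL/6 mice, which are lineage-negative, c-Kit-positive cells selected with magnetic beads. WT mice were Daxx +/+, Daxx-KO mice were Daxx F/F, and DKO mice were Daxx F/F and Pu.1 F/F, and all of them, WT included, carried Cre +/-. CUT&Tag cuts and tags DNA beside an antibody, here against H3.3, the transcription factor Pu.1, H3K27ac, H3K9me3 or H3K27me3. At 3 and 24 weeks post induction (w.p.i.) each table set 2 Daxx-KO mice against 2 WT mice. At 8 w.p.i. there were 3 mice per group, for H3K9me3 in all 3 pairs of genotypes and for H3K27me3 in DKO against WT and against Daxx-KO. The labels did not name the Cre line. The study's methods describe Mx1Cre induced by pI:pC, also for the cross with Pu.1, and Rosa26CreERT2 induced by tamoxifen. Mx1Cre acts in interferon-responsive cells beyond the blood, and pI:pC induces interferon in WT mice as well. Both sexes were used in the study, in general induced as juvenile to young adult animals, and the age and sex of each mouse were not given in the sources used here.

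A table held only windows that had passed a differential test between its own libraries, so every listed site already differed by construction, and no further test was run on it. That choice also favours groups of libraries that do not overlap. The share of such sites over all listed sites is not given here, so their counts mark no trait of the members. A site is called gained where its mean normalised count (reads divided by a library constant of the table) was higher in the first genotype named, and lost where it was lower. Shares of gained sites are given with an exact binomial 95% interval, which covers counting error only, beside the share over all listed sites of the same table. The interval takes windows as independent, although many are neighbours in a few loci. An exact two-sided permutation test of a single site could not go below p = 0.333 with 2 against 2 mice or below p = 0.100 with 3 against 3. CUT&Tag reads were not assigned to the maternal or paternal allele. A lower count can mean fewer cells with a mark or less of it per cell, and these cannot be told apart. Normalised counts were not compared between tables, and the 8 w.p.i. tables shared libraries. Different marks were separate libraries but mostly came from the same mice. At 3 w.p.i. H3.3 and Pu.1 came from a pair of Daxx-KO mice, and H3K9me3 and H3K27ac from another pair. WT mouse 2 of that age was the same animal for the 4 marks, whereas WT mouse 1 differed between these pairs of marks and for H3.3 and Pu.1 was labelled by genotype with no animal number.

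A library had a mean depth of 1.21 to 33.78 reads per window in the 3 w.p.i. tables. The range was 0.20 to 3.29 for those made at 8 w.p.i., and for 24 w.p.i. it was 3.97 to 10.30. The shallowest libraries were H3K9me3 of DKO mice 1 and 2, and WT mouse 2 had far fewer reads than WT mouse 1 for H3.3 (3.06 against 22.88) and Pu.1 (2.75 against 33.78) at 3 w.p.i. The floxed Daxx exons 2 to 7 carried a listed site in 3 tables, lower in the Daxx-KO mice each time, for example H3K27ac at 24 w.p.i. with 113.15 and 93.68 in Daxx-KO against 857.89 and 367.84 in WT. Markers of the sort could be read only where a window was listed. H3K27ac at the start of the progenitor gene Cd34 counted 704.35 and 850.4 in Daxx-KO against 473.63 and 388.41 in WT at 24 w.p.i., and at Kit, which encodes c-Kit, 500.54 and 584.01 against 407.72 and 171.66. At 3 w.p.i. a Cd34 site counted 519.38 and 331.31 in Daxx-KO against 154.74 and 193.07 in WT, and a Kit site 7.75 and 7.65 against 6.45 and 50.75. Of other cells, the T cell gene Cd3e counted 3 and 0 in Daxx-KO against 55.85 and 49.05 in WT at 24 w.p.i., and the myeloid gene Itgam 886.43 and 954.32 against 359.69 and 665.28. Both therefore differed between the genotypes in opposite directions, and neither had a listed H3K27ac site at 3 w.p.i. The part of these differences in the results was not tested.

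Genomic imprinting restricts the expression of a gene to the copy inherited from the mother or from the father. Most clusters are governed by a control region whose DNA was methylated in the egg or in the sperm, and this germline methylation survives the reprogramming of the early embryo because zinc-finger proteins such as Zfp57 bind a methylated TGCCGC hexamer there and recruit Trim28, which brings H3K9me3 to the methylated copy. The unmethylated copy usually carries active histone marks, and in several clusters it makes a long antisense RNA that silences neighbours. Daxx, the gene deleted here, is a chaperone that loads the histone variant H3.3 into heterochromatin together with Atrx. 13 of the members have a promoter in, or beside, a control region methylated in the egg: Peg3, Usp29, Snrpn, Mest, Peg10, Sgce, Kcnq1ot1, Airn, Plagl1, Impact, Nnat, Nespas and Grb10. A listed site within 1 kb of any annotated start of these genes is called a germline promoter site below. Some of the annotated starts, such as those at the far ends of Grb10, Usp29 and Impact and the downstream Nespas start that lies beside the most upstream start of Gnas, lie away from the control region.

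The 4 stretches below are the centres of the H3K9me3 sites that were lost at these promoters in the Daxx-KO mice at 3 w.p.i. with the largest differences and outside annotated UTRs, and they are shown so that the CpGs and hexamers at each can be seen. The Nespas stretch is the one beside the upstream Gnas start, away from the Nespas control region. Each is 300 bases of the GRCm38 plus strand, at chr7:6729626-6729925 between Peg3 and Usp29, chr6:30737276-30737575 at Mest, chr2:174285726-174286025 in the Nespas and Gnas region, and chr17:12742301-12742600 at Airn inside Igf2r. Capitals mark TGCCGC or its reverse complement GCGGCA.
Peg3 and Usp29: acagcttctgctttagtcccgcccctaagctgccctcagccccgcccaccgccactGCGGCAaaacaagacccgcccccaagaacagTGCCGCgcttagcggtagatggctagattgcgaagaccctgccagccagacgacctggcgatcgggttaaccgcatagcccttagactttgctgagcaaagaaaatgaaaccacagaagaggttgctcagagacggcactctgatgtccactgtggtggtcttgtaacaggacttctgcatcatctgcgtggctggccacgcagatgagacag
Mest: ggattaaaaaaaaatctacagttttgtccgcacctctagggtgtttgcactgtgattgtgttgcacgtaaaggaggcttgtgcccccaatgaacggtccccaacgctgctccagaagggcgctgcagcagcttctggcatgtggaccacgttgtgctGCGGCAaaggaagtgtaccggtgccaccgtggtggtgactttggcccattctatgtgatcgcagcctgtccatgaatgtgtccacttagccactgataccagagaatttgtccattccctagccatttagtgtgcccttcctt
Nespas: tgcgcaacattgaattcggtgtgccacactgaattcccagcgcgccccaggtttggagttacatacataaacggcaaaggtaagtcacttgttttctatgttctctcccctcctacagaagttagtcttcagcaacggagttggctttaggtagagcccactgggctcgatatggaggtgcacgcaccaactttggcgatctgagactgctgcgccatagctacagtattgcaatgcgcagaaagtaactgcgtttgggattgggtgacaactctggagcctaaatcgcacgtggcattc
Airn: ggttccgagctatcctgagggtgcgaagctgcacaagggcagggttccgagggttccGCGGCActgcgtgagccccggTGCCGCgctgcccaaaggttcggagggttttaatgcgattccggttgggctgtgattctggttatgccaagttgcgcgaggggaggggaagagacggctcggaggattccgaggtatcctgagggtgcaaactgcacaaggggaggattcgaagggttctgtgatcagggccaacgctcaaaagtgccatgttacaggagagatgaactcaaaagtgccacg
The hexamer was found 2 times in the Peg3 stretch, 2 times in the Airn stretch, 1 time at Mest and 0 times at Nespas, beside 16, 20, 10 and 14 CpGs. In the whole Peg3 site it was present 7 times. Of the 13 germline promoter sites listed for H3K9me3 at 3 w.p.i., 6 held it on either strand, compared with 6.04% of all sites in that table, whose lengths vary. The 6 include a gained site at the distal end of Usp29. Base composition differed too, with a median GC of 54.4% at the 13 sites and 41.1% over all listed sites, and the hexamer itself holds a CpG. Of RefSeq promoters of 300 bases, 6 of the 15 of these genes held it, compared with 11.6% of 32851. These are matches of letters and were not read as bound sites.

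H3K9me3 at the germline promoters was lower in the Daxx-KO mice at 3 w.p.i. at 9 of 13 listed sites and higher at 4. Peg3 encodes a zinc-finger protein, and Usp29 a deubiquitinase read from the same CpG island in the other direction. Their shared promoter site, chr7:6729151-6730400, counted 59.3 and 40 in Daxx-KO against 128.63 and 140.89 in WT, a 2.71-fold lower mean. The start of Mest, a gene of the hydrolase fold expressed from the paternal copy, counted 54.65 and 48.33 against 118.13 and 144.95 at chr6:30736751-30738100. At chr2:174285051-174286700, inside the antisense RNA Nespas and beside the most upstream start of Gnas, the gene of the stimulatory G protein, the counts were 22.09 and 23.33 against 86.63 and 114.8. In none of these did a Daxx-KO library reach a WT library. Nnat, which encodes the membrane protein neuronatin, followed with 11.63 and 13.33 against 33.25 and 41.75. The Airn promoter, start of the antisense RNA that silences Igf2r, counted 10.47 and 8.33 against 27.13 and 37.11. Here too the groups did not overlap. A further site beside the Nespas start, chr2:174296201-174296800, counted 17.44 and 10 against 32.38 and 64.94. Grb10, an adaptor that restrains insulin signalling, showed 2.33 and 1.67 against 14.88 and 12.18. Peg10, a gene derived from a retrotransposon, shares its promoter with Sgce, which encodes a sarcoglycan. That promoter, chr6:4746301-4747150, was at 0 in both Daxx-KO libraries and at 14.88 and 11.02 in WT. A downstream start of Airn, chr17:12815651-12816350, was also at 0 in both and at 8.75 and 15.07 in WT. The Grb10, Peg10 and Airn sites named last rest on few reads. None of the 4 gained sites was rich in CpG: 1 lay in Peg3 at chr7:6724151-6724800, with 23.26 and 11.67 against 5.25 and 2.32, 2 at the distal end of Usp29, and 1 at Snrpn, which encodes a splicing protein, with 9.3 and 13.33 against 0 and 2.32.

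The direction went with base composition in the whole table, but at these promoters only in part. A CpG-rich site is one with at least 50% GC and an observed over expected CpG ratio of at least 0.6. The 5 CpG-rich germline promoter sites were all lost, as were all 6 CpG-rich member sites, and of the 788 CpG-rich sites in the genome 96.7% were lost and 26 gained, whereas 78.9% of all listed sites were gained. The lost sites at Mest, at chr2:174296201-174296800, at Peg10 with Sgce and at the downstream Airn start were not CpG-rich by this measure. Neither were the gained germline promoter sites. Among CpG-rich sites that lay at a promoter of any protein-coding gene, of which 62 were listed, 29% were gained. The part of base composition in the values at imprinted promoters was not tested.

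Another site with less H3K9me3 at 3 w.p.i. lay inside Trappc9, a gene of vesicle transport. It was the lost member site with the largest difference in the table, chr15:72808001-72810650, with 47.67 and 45 in Daxx-KO against 152.25 and 213.36 in WT. This is the promoter of Peg13, a non-coding RNA that starts within Trappc9 and, as background, also carries methylation from the egg. At H19, whose control region upstream is methylated in sperm instead, chr7:142580251-142581300 counted 19.77 and 8.33 against 46.38 and 48.7. At Cdkn1c, the cell-cycle inhibitor p57, the counts at chr7:143461451-143462450 were 10.47 and 3.33 against 32.38 and 30.15, and in Ndn, which encodes necdin, 1.16 and 6.67 against 36.75 and 20.29. So sites with less H3K9me3 in Daxx-KO were also found at control regions and promoters outside the list of 13. The Ndn site lay within the gene, away from its start. None of the sites at Trappc9, H19, Cdkn1c and Ndn was CpG-rich by the measure above.

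**Figure D1:**
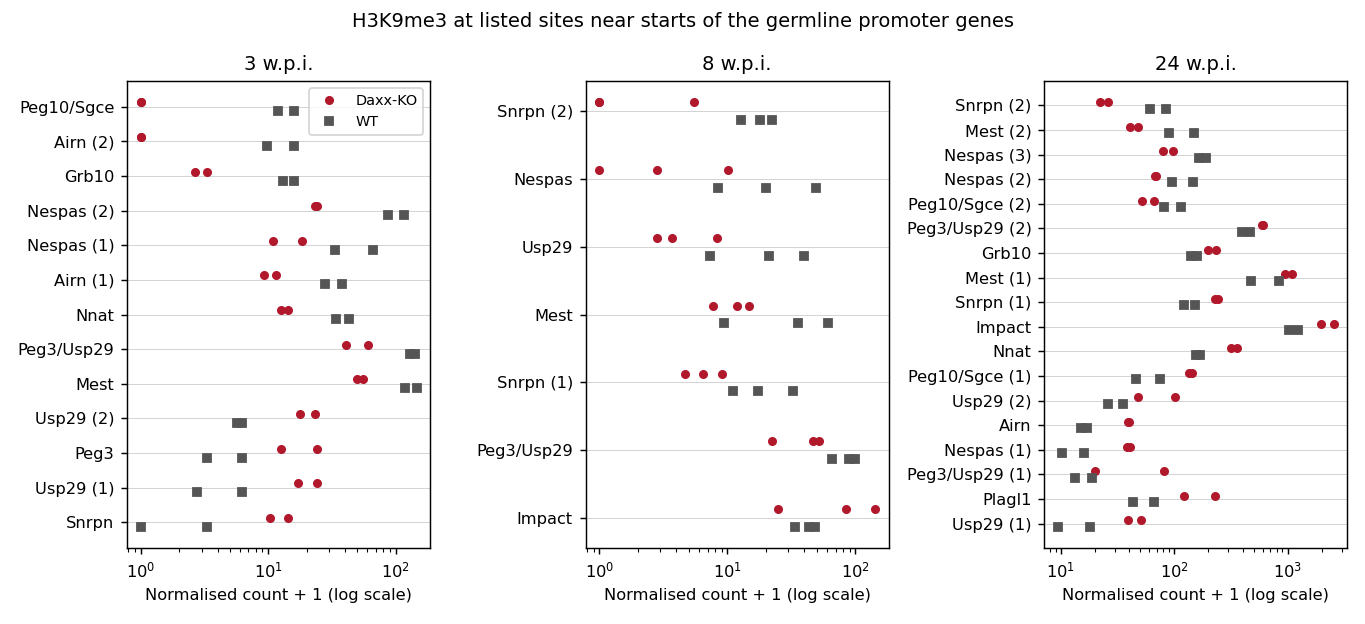
H3K9me3 at germline promoter sites. Each mark is the normalised count of a library plus 1 on a log axis, with red circles for Daxx-KO and grey squares for WT, for each listed site at 3, 8 and 24 w.p.i. (numbers in brackets tell sites of the same gene apart), so that the Peg3 and Usp29 site can be followed from 59.3 and 40 against 128.63 and 140.89 at 3 w.p.i. to 608.87 and 597.21 against 396.39 and 463.83 at 24 w.p.i. Scales of different tables are not comparable.

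At 8 w.p.i. only 7 germline promoter sites were listed for H3K9me3, 6 lost and 1 gained, and the groups were separate at 3 of them. The Peg3 and Usp29 promoter was again lower, with 50.63, 45.98 and 21.39 in Daxx-KO against 97.97, 64.95 and 88.67 in WT at chr7:6729001-6729850, without overlap. Snrpn was lower at chr7:60003551-60004150, with 5.42, 3.68 and 8.02 against 31.6, 10.12 and 16.24, and at its upstream end. At Nespas (9.04, 1.84 and 0 against 18.96, 48.08 and 7.49) and at Mest (10.85, 13.79 and 6.68 against 34.76, 8.44 and 59.95) the libraries of the groups overlapped. Impact, a regulator of translation, was gained, with 83.17, 141.62 and 24.06 against 47.4, 42.18 and 32.47, also with overlap. The Peg13 promoter inside Trappc9 repeated its direction, with 10.85, 11.04 and 9.36 against 22.91, 38.8 and 23.73. Gained sites made up 31.9% of the CpG-rich and 65.2% of all sites listed at this age, and both CpG-rich germline promoter sites were lost. At promoters of any protein-coding gene, however, 57.8% of 45 CpG-rich sites were gained.

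Most germline promoter sites listed at 24 w.p.i. were gained, but not all of them lay at promoters that had been lower before. Plagl1, for example, had no listed H3K9me3 site at 3 w.p.i., and Impact had none at its promoter. Of 18 germline promoter sites at 24 w.p.i., 13 were gained and 5 lost, with separate groups at all 18. The site between Peg3 and Usp29, chr7:6729201-6730200, counted 608.87 and 597.21 in Daxx-KO against 396.39 and 463.83 in WT. Impact showed the largest difference of all member sites, with 2543.87 and 1958.39 against 1036.84 and 1238.75. Mest was higher with 1083.86 and 941.15 against 478.78 and 838.64, where the 2 WT mice themselves stood far apart. Nnat had 356.4 and 314.76 against 153.89 and 168.67, a 2.08-fold higher mean. Snrpn at chr7:60003501-60004550 counted 228.25 and 242.84 against 121.25 and 150.86. Plagl1, which encodes a zinc-finger growth regulator, counted 120.5 and 228.25 against 65.29 and 42.17 at chr10:13090101-13091750. Grb10 counted 232.07 and 195.94 against 157 and 140.55. These promoters of paternally or maternally read genes were all above WT in both Daxx-KO mice. Nespas was divided, and lower with 77.78 and 95.89 against 188.09 and 165.85 at chr2:174284901-174286100 and 66.94 and 67.75 against 144.57 and 93.7 at chr2:174296001-174296600. Between them chr2:174286351-174286950 was higher, with 36.98 and 39.61 against 9.33 and 14.99. A start of Mest upstream of its CpG island was lower, with 39.53 and 46.9 against 147.68 and 88.08. The Peg10 and Sgce island was split between a lost site (65.03 and 51.07 against 80.83 and 114.32) and an adjoining gained site (141.54 and 133.41 against 45.08 and 74.03). CpG-rich sites were again not neutral in this table: 67.1% of 2640 were gained, against 48.1% of all sites, and 18 of the 21 CpG-rich member sites were gained.

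H3K9me3 in DKO HSPCs was lower at the same kind of site. Against WT, 5 of 6 germline promoter sites were lost. Mest counted 6.47, 13.81 and 13.03 in DKO and 88.51, 25.12 and 70.9 in WT at chr6:30736851-30738300, and the Nespas start counted 17.24, 13.81 and 19.17 against 85.82, 60.59 and 68.75 at chr2:174295701-174297300. Both were free of overlap. In front of Meg3, the maternally expressed non-coding RNA of the Dlk1 cluster, chr12:109537951-109539150 counted 19.4, 27.63 and 19.93 against 88.96, 89.16 and 56.58. Against Daxx-KO, where the libraries of the DKO mice were the same, all 4 germline promoter sites were lost. Mest counted 10.18, 19.61 and 18.22 in DKO against 117.12, 137.75 and 41.52 in Daxx-KO, and Nespas 10.18, 13.07 and 16.77 against 60.05, 77.86 and 40.75. At Impact and at Peg3 with Usp29 the Daxx-KO mouse 3, with 15.38 and 7.69, fell within the range of the DKO mice. Only 6.13% of the CpG-rich sites were gained in DKO against WT and 7.30% against Daxx-KO, compared with 81.4% and 73.4% of all sites. Among CpG-rich sites at a promoter of any protein-coding gene the shares were 43.3% of 30 and 21.4% of 28. The normalised counts of DKO mice 1 and 2 stand on few reads, 3 and 4 at Mest in the comparison with WT.

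Over all member sites, H3K9me3 was mostly gained. At 3 w.p.i. 61 of 83 member sites were gained, or 73.5% (62.7 to 82.6), near the 78.9% of the whole table. At 8 w.p.i. 49 of 65 were gained, or 75.4% (63.1 to 85.2), beside 65.2%. At 24 w.p.i. 188 of 278 were gained, or 67.6% (61.8 to 73.1), whereas 48.1% of all listed sites were. The 24 w.p.i. share lay above that of the whole table, and the median log2 ratio was 1.17 for member sites and -0.70 for all sites. The interval cannot judge this difference, because it takes neighbouring windows as independent. Of the 278 sites, 78 lay in the Peg3 cluster, and 60 of these were gained. In DKO against WT 39 of 49 sites were gained, or 79.6% (65.7 to 89.8), beside 81.4%, and in DKO against Daxx-KO 25 of 40, or 62.5% (45.8 to 77.3), beside 73.4%. Without DKO mouse 2, the shallowest library, these shares were 73.5% and 52.5%. The groups were separate at all 83, at 58 of 65 and at 267 of 278 member sites at 3, 8 and 24 w.p.i., but only at 34 of 49 and 25 of 40 in the DKO tables. Such separation is favoured by the way sites were listed, and these counts have no share over all listed sites beside them. Sites per Mb in the member windows were 31.5, 24.7 and 105.4 at 3, 8 and 24 w.p.i., against 22.8, 25.6 and 61.1 over the genome.

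**Figure D2:**
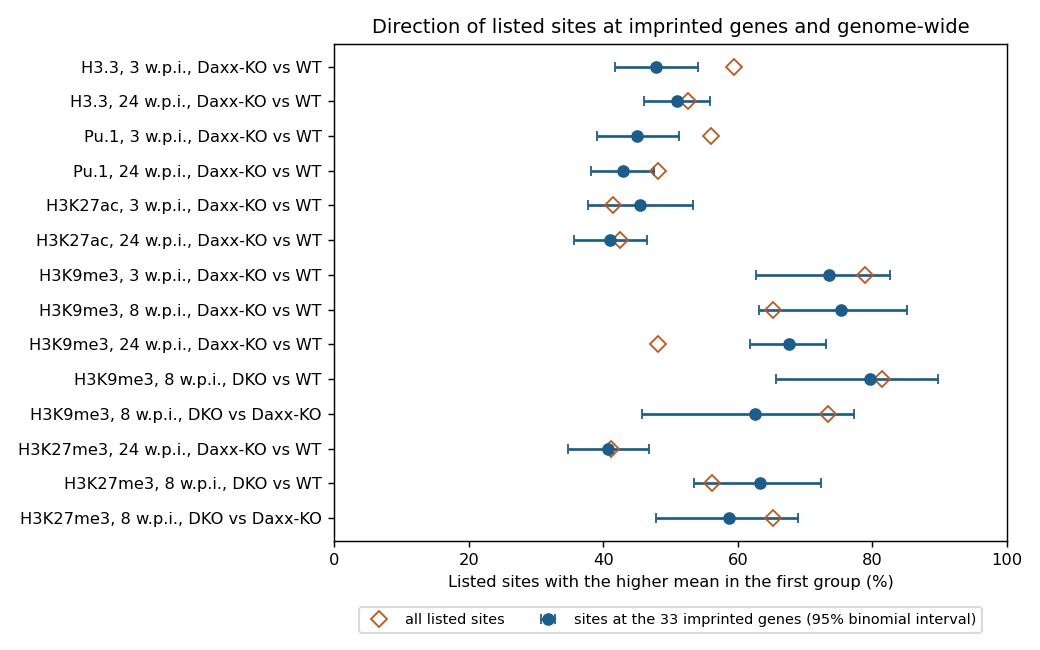
Share of gained sites in the 14 tables. Points with bars give the percent of member sites gained with exact 95% intervals, and open diamonds give the percent over all listed sites of the same table, so that H3K9me3 at 24 w.p.i. is seen above its table (67.6% against 48.1%) and H3.3 and Pu.1 at 3 w.p.i. below theirs (47.9% against 59.4%, and 45% against 56.0%).

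The Peg3 cluster held more gained H3K9me3 sites than any other cluster in each table. It had 22 gained and 2 lost at 3 w.p.i., 19 and 7 at 8 w.p.i., 60 and 18 at 24 w.p.i., and 19 and 0 in DKO against WT. Most lay in the 237 kb annotated body of Usp29, with 17, 12, 46 and 15 gained sites in those tables, over 167, 215, 234 and 148 kb. An intronic site of Usp29 counted 60.47 and 21.67 in Daxx-KO against 5.25 and 11.6 in WT at 3 w.p.i. (chr7:6827301-6828450), and its neighbour chr7:6825901-6826900 counted 56.05, 43.22 and 48.13 against 16.59, 16.03 and 22.48 at 8 w.p.i. At 24 w.p.i. chr7:6824501-6826450 counted 1073.02 and 774.39 against 526.97 and 598.76. A shorter gained site of 3 w.p.i., chr7:6826651-6827250, with 32.56 and 8.33 against 4.38 and 6.96, overlapped the 8 w.p.i. window, which overlapped that of 24 w.p.i. The groups were separate at each of these sites. A lost site of 8 w.p.i., chr7:6823901-6824500, lay directly beside the 24 w.p.i. window, with 0, 2.76 and 0 against 6.32, 8.44 and 8.74. Zim1, a zinc-finger gene read from the maternal copy, had 2 gained and 1 lost, 5 and 1, and 8 and 2 sites at the 3 ages. Peg3 itself had 3 and 1, 4 and 4, and 7 and 1.

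**Figure D3:**
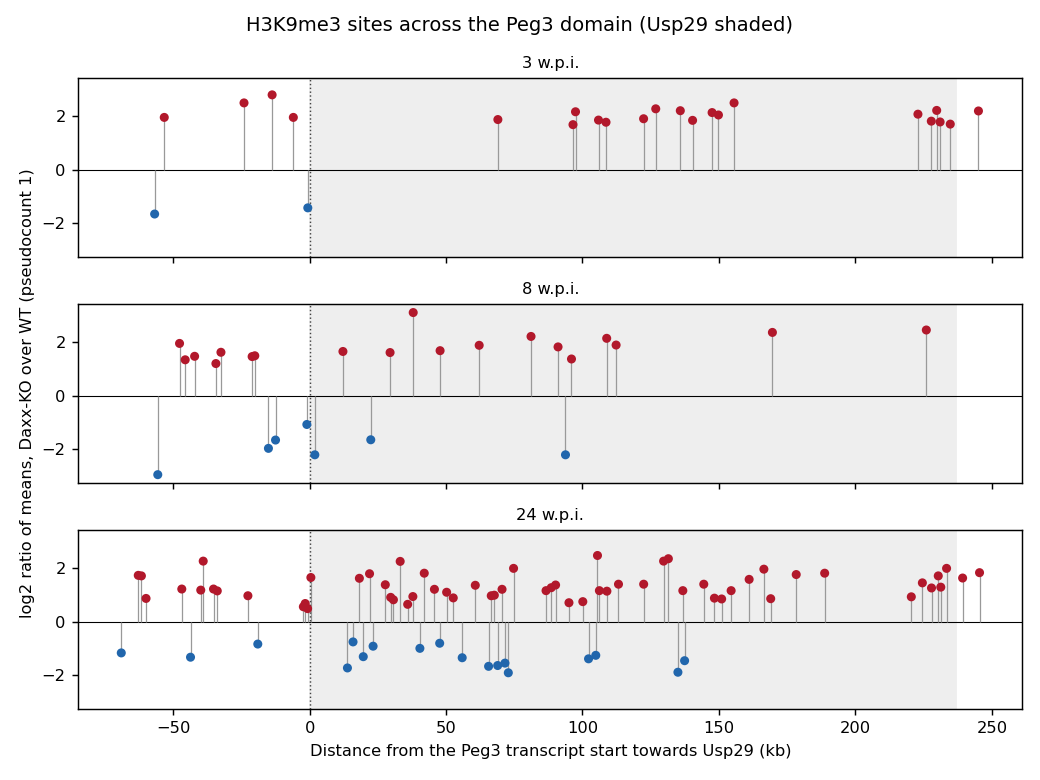
H3K9me3 along the Peg3 cluster. Each point is the log2 ratio of the Daxx-KO to the WT mean (pseudocount 1) at a listed site, red above and blue below 0, placed by its distance in kb from the start of Peg3 towards Usp29 (shaded), with 1 panel for each age. The promoter site is negative at 3 and 8 w.p.i. (-1.42 and -1.07) and positive at 24 w.p.i. (0.49), and the sites across the body of Usp29 are mostly positive in each panel.

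The Kcnq1 cluster gained H3K9me3 within the unit of Kcnq1ot1, the antisense RNA that silences its neighbours on the paternal copy. All 13 sites in its body were gained at 3 w.p.i., 9 of 10 at 8 w.p.i. and 17 of 17 in DKO against WT, where they ran over 42 kb from position 143212851 to 143254800. In the DKO table the groups were separate at 11 of the 17, and chr7:143227551-143228200, for example, rested on DKO mouse 2 with 8.62, 183.04 and 19.93 against 27.41, 13.3 and 16.47. At 3 w.p.i. chr7:143228351-143230050 counted 76.74 and 118.33 in Daxx-KO against 28 and 37.69 in WT, and at 8 w.p.i. chr7:143225451-143226350 counted 143.75, 161.85 and 108.28 against 64.78, 36.27 and 63.69. In DKO mice, chr7:143234201-143236600 counted 176.75, 165.78 and 62.87 against 40.44, 56.65 and 41.54 in WT. Repeats masked 76.3% of the median gained site of the tract at 3 w.p.i. and 91.4% at 8 w.p.i., against 40.8% and 37.1% over all listed sites. In the DKO tables it was 39.8% against WT and 38% against Daxx-KO, beside 44.3% and 43.2%, and for the gained sites of 24 w.p.i. 6.96%, beside 25.2%. At 24 w.p.i. the same body held 2 gained and 4 lost sites. Kcnq1, a potassium channel gene that contains the tract, had 24 gained and 12 lost at that age, and Cdkn1c was gained at its start with 439.92 and 540.93 against 153.89 and 266.12. Phlda2, a growth-restraining gene of the placenta, had no H3K9me3 site at 3 or 8 w.p.i. and 2 gained and 1 lost at 24 w.p.i.

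Snrpn had 12 gained and 1 lost H3K9me3 sites at 3 w.p.i., 6 and 4 at 8 w.p.i. and 7 and 7 at 24 w.p.i. Its intronic site chr7:60058951-60060050 counted 27.91 and 31.66 in Daxx-KO against 4.38 and 9.86 in WT at 3 w.p.i. Of the intronless genes beside it, Ndn and Mkrn3 had 1 lost site each and Peg12 1 gained at 3 w.p.i. At 8 w.p.i. Peg12 was gained with 17.18, 27.59 and 18.72 against 3.16, 4.22 and 5, and at 24 w.p.i. its start was gained with 238.45 and 278.28 against 127.47 and 150.86, beside 2 lost sites. Magel2, a gene of a ubiquitin ligase adaptor, had no site at 3 w.p.i., 1 gained at 8 w.p.i., and 3 gained and 1 lost at 24 w.p.i. Upstream of Meg3, chr12:109537401-109538400 was gained at 3 w.p.i. with 51.16 and 50 against 22.75 and 20.87, and chr12:109539151-109540050 at 24 w.p.i. with 278.61 and 213.66 against 121.25 and 126.5. This interval near the Meg3 start was therefore higher in Daxx-KO at those ages and, at the neighbouring site given above, lower in DKO than in WT.

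The other genes had fewer H3K9me3 sites at 3 and 8 w.p.i. Igf2 carried 1 gained site at each of these ages, upstream of its start in the same 2 kb, with 16.28 and 21.67 against 3.5 and 7.54 at 3 w.p.i. and 41.59, 19.31 and 13.37 against 10.27, 3.37 and 11.24 at 8 w.p.i. Airn, whose 4 sites at 3 w.p.i. were all lost, had 3 gained and 1 lost at 8 w.p.i. and 10 gained and 1 lost at 24 w.p.i. Igf2r, the receptor that clears Igf2, had 1 gained and 2 lost, then 1 gained, then 7 gained and 1 lost, and at its far end chr17:12687601-12688800 counted 138.35 and 99.01 against 18.65 and 24.36 at 24 w.p.i. Slc22a3, a cation transporter gene, had sites only at 24 w.p.i. for this mark, 6 gained and 4 lost. Of the Dlk1 cluster, Dlk1, Rtl1 and Rian had H3K9me3 sites only at 24 w.p.i., with 0 gained and 1 lost, 2 and 3, and 1 and 2. Zdbf2 had 1 gained site at 8 w.p.i. and 3 at 24 w.p.i., none lost. Trappc9 had 22 gained and 15 lost at 24 w.p.i.

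**Figure D4:**
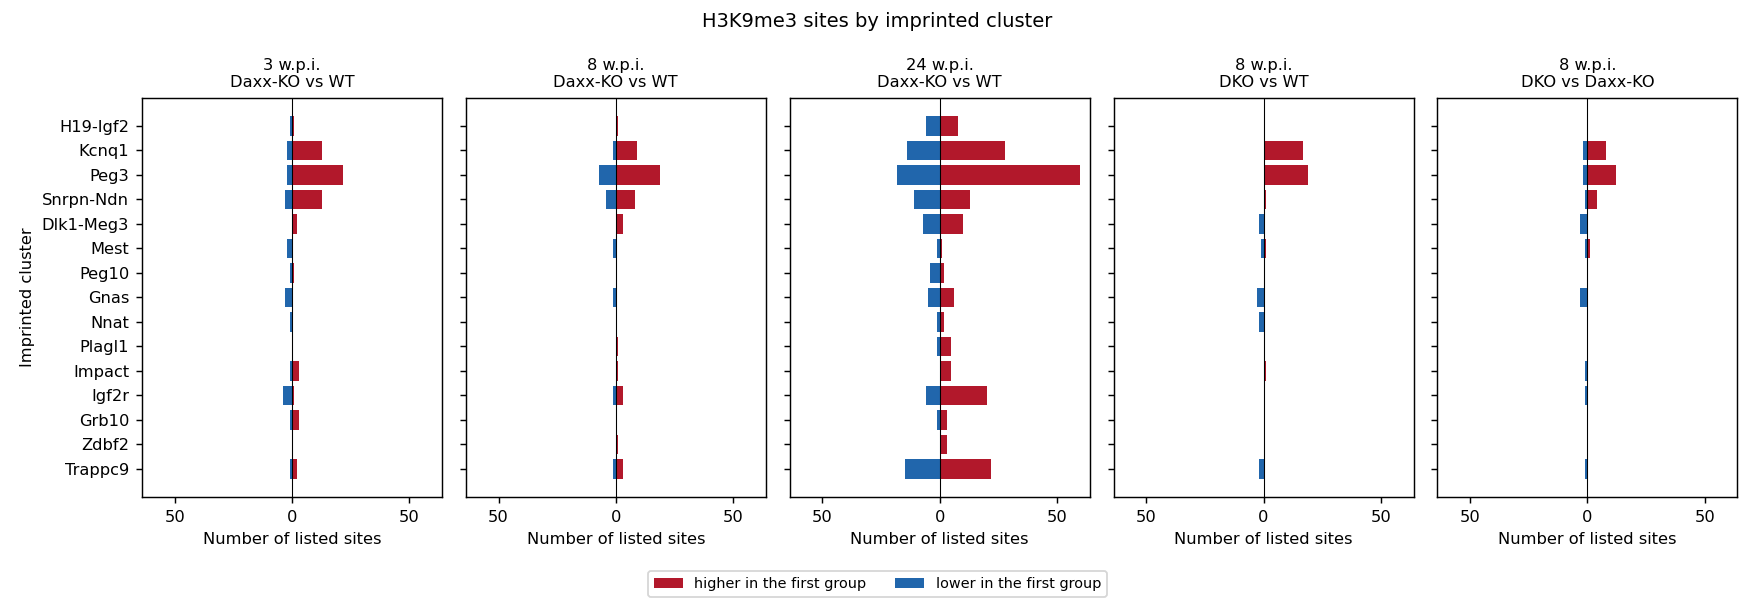
Gained and lost H3K9me3 sites in the 15 clusters. Bars to the right count gained and bars to the left count lost sites for each comparison, and the Peg3 cluster has the longest bars to the right, with 22, 19 and 60 gained sites at 3, 8 and 24 w.p.i.

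H3.3 was higher at the germline promoters of the Daxx-KO mice at 3 w.p.i., at 12 of 13 listed sites. Mest counted 163.46 and 84.01 in Daxx-KO against 29.45 and 20.95 in WT at chr6:30737501-30738700. This site overlaps only the end of the sequence shown above and does not reach its hexamer. The Nespas start, chr2:174294951-174296900, counted 240.05 and 141.49 against 93.95 and 41.91. The Peg10 and Sgce promoter counted 120.03 and 93.59 against 35.06 and 44.53. The groups were separate at all 13 sites, although at Mest and Nespas the Daxx-KO mice themselves lay far apart. Impact counted 97.92 and 130.43 against 59.6 and 26.19, and Airn 56.85 and 55.27 against 24.54 and 20.95. All 14 CpG-rich member sites were gained, and so were 92.6% of the CpG-rich sites in the genome. Over all member sites, in contrast, 128 of 267 were gained, or 47.9% (41.8 to 54.1), below the 59.4% of the table. Lost sites outnumbered gained ones in the Dlk1 and Meg3 cluster, with 7 gained and 19 lost, and at Grb10, with 3 and 14. At H19 all 6 sites were lost. Downstream of Meg3, chr12:109576201-109578250 counted 39.48 and 33.9 against 164.77 and 199.06, and at 24 w.p.i. the overlapping site counted 24.29 and 19.24 against 95.94 and 171.1. Without WT mouse 2, the shallow library, the share of gained member sites was 49.1%.

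At 24 w.p.i. the same promoters gave 6 gained and 6 lost H3.3 sites. Airn remained higher, with 86.11 and 95.07 against 10.15 and 17.86, whereas Mest counted 8.83 and 0 against 38.74 and 86.49. Of all member sites 213 of 418 were gained, or 51% (46.1 to 55.8), beside 52.6%, and 3 of 8 CpG-rich member sites, beside 55.4%. All 6 sites of Zdbf2 were lost, and Dlk1 with its neighbours had 27 gained and 17 lost. Where a member site was listed at both ages, the direction was the same in 52 of 89 pairs, or 58.4% (47.5 to 68.8), beside 51.2% over all sites. A site in the last part of Igf2r, chr17:12687601-12689200, counted 223.01 and 169.77 against 70.11 and 47.01.

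Pu.1 at the germline promoters was evenly split at 3 w.p.i., with 7 sites gained and 7 lost. The Grb10 promoter counted 121.3 and 137 in Daxx-KO against 54.84 and 70.32 in WT, and the start of Kcnq1ot1 153.6 and 100.52 against 59.02 and 38.36. Mest was lower at chr6:30736751-30737450, with 17.33 and 19.45 against 55.89 and 89.5, and Nespas with 28.36 and 23.51 against 45.96 and 127.85 at chr2:174295201-174295800. Of the CpG-rich member sites 11 of 18 were gained, whereas 93.8% of CpG-rich sites of the table were. Of all member sites 122 of 271 were gained, or 45% (39 to 51.2), beside 56.0%. At 24 w.p.i. 6 of 18 germline promoter sites were gained and 12 lost, and the Peg3 and Usp29 promoter was at 0 in both Daxx-KO mice against 43.18 and 63.15 in WT. Cdkn1c had 7.5 and 0 against 138.17 and 246.29, and the Peg13 promoter 55.89 and 29.25 against 244.68 and 223.13. Member sites were gained at 189 of 441, or 42.9% (38.2 to 47.6), beside 48.2%, and CpG-rich member sites at 3 of 11, beside 36.7%. In repeated sites the direction was the same in 63 of 120 pairs, or 52.5% (43.2 to 61.7), beside 48.1%.

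H3K27ac, the mark of active promoters and enhancers, was lower at 7 of 8 germline promoter sites at 3 w.p.i. and higher at 6 of 10 at 24 w.p.i. Kcnq1ot1, whose promoter is the active control region of the paternal copy, counted 32.95 and 26.34 in Daxx-KO against 68.77 and 52.96 in WT at 3 w.p.i. and 1024.31 and 1021.65 against 686.98 and 673.99 at 24 w.p.i. Impact counted 48.45 and 4.25 against 70.92 and 218.44 at 3 w.p.i., a wide spread in each group. At 24 w.p.i. a site that overlapped only the end of that one counted 3429.59 and 2387.26 against 2157.01 and 1663.61. The CpG-rich sites of the 2 tables were split in the same way, with 7.28% gained at 3 w.p.i. and 81.8% at 24 w.p.i., and CpG-rich member sites were gained at 0 of 5 and at 9 of 11. Outside promoters a different picture held. An intronic element of Igf2r and Airn was lower at both ages, with 20.35 and 5.1 against 85.97 and 72.81 at 3 w.p.i. and 192.57 and 323.47 against 479.21 and 704.05 at 24 w.p.i. (chr17:12753951-12755800). Igf2r had 2 gained and 19 lost H3K27ac sites at 3 w.p.i. and 6 and 20 at 24 w.p.i.

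Trappc9 carried the most H3K27ac sites of the list. At 3 w.p.i. 39 of its 58 sites were gained, for example chr15:72970751-72974300 with 973.83 and 1069.55 against 395.44 and 539.49, and at 24 w.p.i. 52 of 123, for example chr15:72928201-72930100 with 2543.16 and 2135.51 against 960.66 and 953.23. The gene is long and its windows weigh on the total: 75 of 165 member sites were gained at 3 w.p.i., or 45.5% (37.7 to 53.4), beside 41.5%. The share was 33.6% without Trappc9 and 62% among sites with a mean of at least 20 in the higher group, so its side of 50% was not fixed. At 24 w.p.i. 136 of 332 were gained, or 41% (35.6 to 46.5), beside 42.5%. Of the pairs of sites listed at both ages, 39 of 70 had the same direction, or 55.7% (43.3 to 67.6), beside 59.8%. Slc22a3, next to Igf2r, had 11 gained and 5 lost at 3 w.p.i., and at 24 w.p.i. its start was higher, with 182.08 and 162.47 against 54.74 and 59.33. Mest and Zdbf2 had no H3K27ac site at 3 w.p.i. and Zdbf2 none at 24 w.p.i.

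H3K27me3, the Polycomb mark that also coats imprinted domains silenced by long antisense RNAs, divided the clusters at 24 w.p.i. Of 268 member sites 109 were gained, or 40.7% (34.7 to 46.8), beside 41.2% of all sites. The Dlk1 and Meg3 cluster had 38 gained and 10 lost, with 14 gained in Rian, the host of small nucleolar RNAs, 13 at Meg3 and 7 at Rtl1, a retrotransposon-derived gene. In front of Meg3, chr12:109533851-109535450 counted 514.51 and 539.09 in Daxx-KO against 240.87 and 371.24 in WT. H19 and Igf2 had 13 gained and 3 lost. In the opposite direction the Kcnq1 cluster had 15 gained and 48 lost, Trappc9 0 and 17, Plagl1 0 and 9, the Peg3 cluster 0 and 9, Grb10 2 and 11 and Zdbf2 1 and 8. Within the Kcnq1 cluster, an intron of Kcnq1 counted 343.81 and 365.22 against 520.95 and 742.47, whereas the Cdkn1c promoter was gained with 1478.93 and 1143.5 against 822.5 and 928.09. The Igf2r cluster was mixed at 27 and 29. There chr17:12756901-12758750 was higher with 706.76 and 750.68 against 336.1 and 499.74, and the Igf2r promoter lower with 664.48 and 747.92 against 850.51 and 1539.21.

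At the germline promoters H3K27me3 was lost at 11 of 15 sites at 24 w.p.i., with separate groups at 9 of the lost and at the 4 gained. At 1 of the others, chr2:174283901-174284650 at the upstream Gnas start, the values were close, with 666.08 and 636.6 against 659.12 and 655.38, and scaling by reads per window turned the direction. Plagl1 counted 106.09 and 27.6 against 260.47 and 365.53, Kcnq1ot1 84.56 and 62.56 against 238.07 and 187.05, and Impact 138 and 168.35 against 248.34 and 305.56. Nespas at chr2:174294351-174295000 was higher, with 148.37 and 156.39 against 106.43 and 74.25. Of CpG-rich sites 11.2% were gained in the table, and 2 of 10 among the members. At Impact the lower H3K27me3 site lay within the higher H3K9me3 site of the same mice, whereas at Plagl1 the lower H3K27me3 and the higher H3K9me3 site lay at different starts.

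In DKO mice at 8 w.p.i. the direction of H3K27me3 differed between clusters, and several clusters held both. In the Igf2r cluster all 34 sites were gained against WT, 21 of them at Airn, 21 at Igf2r and 3 at Slc22a3, with windows of Airn and Igf2r overlapping. In an intron of Airn, chr17:12802001-12804800 counted 81.51, 149.35 and 174.34 in DKO against 44.61, 52.54 and 29.06 in WT. Against Daxx-KO the same cluster had 16 gained and 10 lost. Gnas and Nespas lost all 10 sites against WT and all 7 against Daxx-KO, for example with 227.55, 167.69 and 180.88 against 369.11, 341.5 and 333.13 in WT at chr2:174289101-174291850. The Kcnq1 cluster had 11 gained and 4 lost against WT and 13 and 2 against Daxx-KO. Dlk1 with its neighbours had 2 gained and 12 lost against WT but 7 gained and 4 lost against Daxx-KO. Mirg, the microRNA host of that cluster, counted 36.23, 25.33 and 64.29 against 105.84, 135.87 and 114.02 in WT. Phlda2 was gained in both tables, with 130.19, 117.9 and 90.44 against 37.61, 9.96 and 72.66 in WT and 372.91, 214.1 and 238.2 against 110.37, 141.29 and 115.82 in Daxx-KO. Peg10 and Sgce had 5 gained and 0 lost, then 8 and 1, and Mest 5 and 0, then 1 and 0. Grb10 was lower upstream of its start in both, with 58.87, 69.87 and 77.36 against 196.8, 170.3 and 178.86 in WT and, at a nearby site, 173.27, 112.58 and 129.03 against 283.33, 251.06 and 282.97 in Daxx-KO. Because both tables used the same DKO libraries, their values stand side by side here and were not counted as a repeat.

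**Figure D5:**
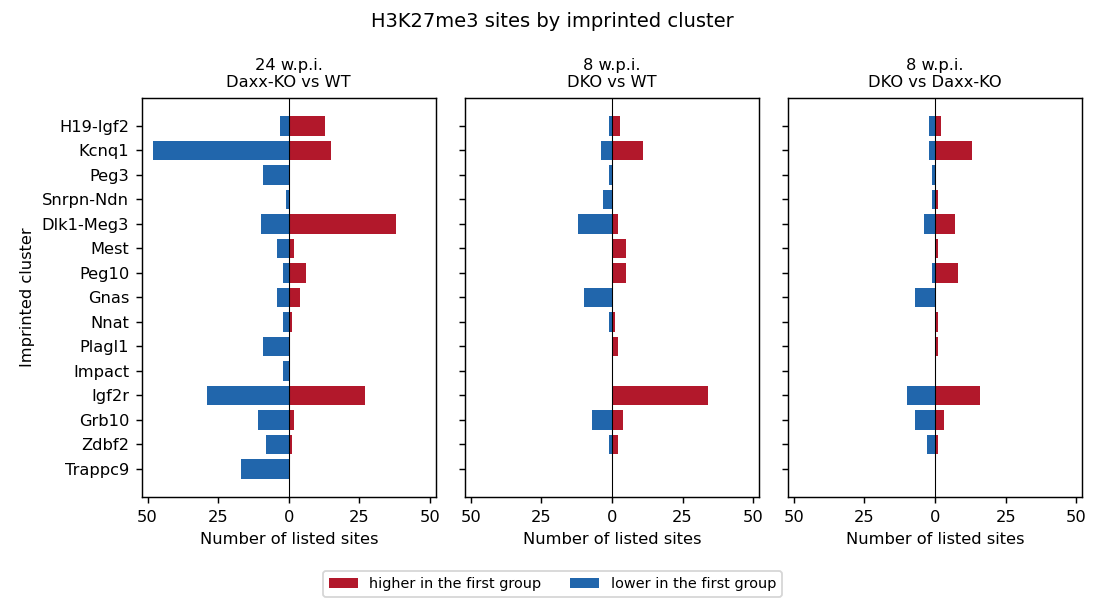
Gained and lost H3K27me3 sites in the 15 clusters. Bars to the right count gained and bars to the left count lost sites for Daxx-KO against WT at 24 w.p.i. and for DKO against WT and against Daxx-KO at 8 w.p.i., with 34 gained and 0 lost in the Igf2r cluster of DKO against WT and 38 gained and 10 lost in the Dlk1 and Meg3 cluster at 24 w.p.i.

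Over all member sites of DKO mice, 69 of 109 H3K27me3 sites were gained against WT, or 63.3% (53.5 to 72.3), beside 56.1%, and 54 of 92 against Daxx-KO, or 58.7% (47.9 to 68.9), beside 65.3%. Germline promoters had 6 gained and 2 lost, of which 5 gained lay at starts of Mest, and 2 and 4. The CpG-rich member sites numbered 2, both lost, beside 67.2% gained in the table, and 3, 1 of them gained, beside 14.7%.

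H3K9me3 sites were compared between ages in separate mice. Of 18 pairs listed at 3 and 8 w.p.i., 16 had the same direction, or 88.9% (65.3 to 98.6), beside 77.4% over all sites. 10 of the gained pairs were in the Kcnq1ot1 tract, and the 3 lost pairs were the Peg3 and Usp29 promoter, the Nespas site and the Peg13 promoter. Between 3 and 24 w.p.i. it was 20 of 36 pairs, or 55.6% (38.1 to 72.1), beside 56.8%, with 12 pairs lost first and gained later. Those 12 included Airn, Nnat, Mest, the Peg3 and Usp29 promoter, the Peg13 promoter, Ndn, H19 and Cdkn1c. Between 8 and 24 w.p.i. it was 15 of 25, or 60% (38.7 to 78.9), beside 60%.

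Of the 33 members, 32 had at least 1 listed site for H3.3 at 3 w.p.i., 31 at 24 w.p.i., 32 for Pu.1 at each age, 26 and 29 for H3K27ac, and 24, 20 and 33 for H3K9me3 at 3, 8 and 24 w.p.i. For H3K27me3 they numbered 29 at 24 w.p.i. and 25 and 24 in the DKO tables, and 12 and 14 had an H3K9me3 site in the DKO tables. Trappc9, at 472 kb, and Kcnq1, at 321 kb, had the most sites, 579 and 477 over all tables. The short intronless genes Ndn and Mkrn3 had 5 and 8. Member sites within 1 kb of a start of a member gene made up between 9.09% of the H3K27ac sites at 3 w.p.i. and 20% of the H3K9me3 sites in DKO against Daxx-KO, with 11.6% and 9.57% for H3.3, 16.2% and 10.7% for Pu.1 and 10.8% for H3K27ac at 24 w.p.i. For H3K9me3 the share was 18.1%, 16.9% and 17.3% at 3, 8 and 24 w.p.i. and 16.3% in DKO against WT, and for H3K27me3 17.5% at 24 w.p.i. and 19.3% and 17.4% in the DKO tables. A gene without a site in a table had no window past the authors' threshold, which does not show that it was the same in the groups.

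A second list held 35 other imprinted genes, such as Ube3a, Ascl2, Peg13, Dio3 and Rasgrf1, of which Peg13 lies inside the member Trappc9. The list kept any site that it shared with the members, so it is not a separate set of sites. Its H3K9me3 sites were gained at 11 of 27 at 3 w.p.i., 9 of 16 at 8 w.p.i. and 75 of 129 at 24 w.p.i., or 40.7%, 56.2% and 58.1%, beside 78.9%, 65.2% and 48.1% of all listed sites. H3K27me3 was gained at 82 of 219 at 24 w.p.i., or 37.4% beside 41.2%, and, in DKO mice, at 75 of 103 against WT and 67 of 88 against Daxx-KO, or 72.8% and 76.1% beside 56.1% and 65.3%. A further list held 7 genes that maintain imprints: Zfp57 and Zfp445, which bind the methylated control regions, Dppa3, Dnmt1 and Uhrf1, which protect or copy DNA methylation, Ctcf, which insulates the unmethylated copy, and Smchd1, which silences imprinted domains. Their H3.3 sites were gained at 36 of 39 at 3 w.p.i. and at 34 of 67 at 24 w.p.i., or 92.3% and 50.7%, beside 59.4% and 52.6% of all sites and 92.6% and 55.4% of CpG-rich sites. Pu.1 was gained at 35 of 43 and 28 of 51, or 81.4% and 54.9%, beside 56.0% and 48.2% of all sites. The shares of CpG-rich sites were 93.8% and 36.7%. H3K27ac was gained at 12 of 36 and 35 of 77, or 33.3% and 45.5%, beside 41.5% and 42.5%, and 7.28% and 81.8% of CpG-rich sites. H3K9me3 was gained at 1 of 5, 3 of 12 and 14 of 26 at 3, 8 and 24 w.p.i., beside 78.9%, 65.2% and 48.1%. CpG-rich H3K9me3 sites were gained at 3.3%, 31.9% and 67.1%. All 18 H3K27me3 sites at these genes were lost at 24 w.p.i., beside 41.2% of all and 11.2% of CpG-rich sites gained in the table.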

How the data were processed

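Per the labels and the study's methods, CUT&Tag libraries were aligned to mm10 and the authors compared genotypes with diffReps 1.55.6 in 600-bp windows stepped by 50 bp, with 100-bp fragments and a window p cutoff of 0.0001. The submitters' processing notes also name CASAVA 1.8.4, cutadapt 1.13, STAR 2.5.3 and bedtools, with no role stated. The deposited tables list only windows past that cutoff and hold, for every library, a count divided by a normalization constant given in the header, which is a signal value used here. Reads on X and Y were left out by the authors at 24 w.p.i. Deposited columns with the direction, log2 fold change, p-values, window statistics and enrichment were the authors' own comparisons and were not used.

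Of 62 libraries, 54 in 14 tables entered. 8 DKO libraries of 24 w.p.i. are in no table, and 1 table of H3K27me3 at 8 w.p.i., whose control columns hold H3K9me3 libraries, was left out. Group means recomputed from the libraries differed from the deposited means by at most 0.0067. Sites were joined to GENCODE M21 genes, and the GC content, CpG ratio, repeats and hexamers of each site were read from GRCm38 (Python 3.11.15, numpy 2.4.6, pandas 2.3.3, scipy 1.17.1, matplotlib 3.10.9), after the scripts had been tested on simulated data. Promoter sequences for the hexamer's background came from RefSeq. Log2 ratios carry a pseudocount of 1. Depth is the mean number of reads per window that the header gives for a library, not a mean over the listed sites. The intervals cover counting error only. Mice carry the replicate numbers of the labels, matched by animal. By the library numbers in the file headers, the 8 w.p.i. libraries fell into 2 runs, the later one with Daxx-KO mouse 1, WT mouse 2 and DKO mouse 2, and what the runs stand for is not given in the sources used here.

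The members and lists were chosen with earlier results of these data known. Named sites were the gained and the lost site of each table with the largest difference among those with separate groups, sites at the germline promoters, and sites listed at more than 1 age. Sites named beyond these, such as those at Igf2, Peg12, Slc22a3 and H19, were picked after their values were seen. The alternatives were other flanks, size limits, overlaps and promoter widths, merged neighbours, no Trappc9, each library left out, and, added after the data were seen, another scaling and the 8 w.p.i. tables without the later run. A marker of another cell type was looked up and is not reported here.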

Additional observations from a re-analysis of the deposited data

Results flagged for a closer look

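At some promoters the Daxx-KO and WT libraries did not overlap at either of 2 ages but lay on opposite sides of each other. The difference between the ages was not tested, the mice of each age were separate, and the values below are log2 ratios of the Daxx-KO to the WT mean with a pseudocount of 1. For H3K9me3 the ratio at 3 and then 24 w.p.i. was -1.42 and 0.49 at Peg3 with Usp29. It was -1.34 and 0.62 at Mest, -1.51 and 1.05 at Nnat and -3.69 and 1.30 at a downstream start of Airn. The Airn sites, chr17:12815651-12816350 and chr17:12816101-12816850, overlapped only in part. At Nespas the ratio was -2.10 and 1.58, but the later site overlapped only the end of the earlier one. A neighbouring site that was lower in Daxx-KO at 24 w.p.i. overlapped more of the earlier site, so most of that site did not turn. From 8 to 24 w.p.i. the ratio was -1.07 and 0.49 at Peg3 with Usp29 and -1.60 and 0.79 at Snrpn.

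H3K27ac turned in the same order at Kcnq1ot1, with -1.01 and 0.59. At Impact it was -2.41 and then 0.61, but the sites, chr18:12972401-12973350 and chr18:12973151-12974100, overlapped only at their ends. H3.3 at Mest turned the other way, with 2.25 and -3.55. Pu.1 was at -1.21 and then 2.31 in the Nespas region and at 1.57 and then -2.07 at a distal start of Mest. The pairs were found by searching all germline promoter sites, so they describe these libraries and give no rate. The whole tables moved too: 26 of 788 CpG-rich H3K9me3 sites were gained at 3 w.p.i. and 67.1% at 24 w.p.i., and their part in these pairs was not tested.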

How the results depend on the processing

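Of 233 alternative settings over 32 shares, 211 gave a value inside the counting interval of the reported share and 22 gave one outside it. None of the 66 settings that left out a library did, and with each library left out in turn the share of gained member sites was 47.9% to 49.1% for H3.3 at 3 w.p.i. and 49.8% to 51.4% at 24 w.p.i., 45% at every omission and 41.7% to 43.1% for Pu.1, 45.5% at every omission and 40.4% to 41.3% for H3K27ac, 73.5%, 75.4% and 66.5% to 68.7% for H3K9me3 at 3, 8 and 24 w.p.i., 73.5% to 79.6% in DKO against WT and 52.5% to 62.5% against Daxx-KO, and for H3K27me3 40.7% to 42.2%, 63.3%, and 56.5% to 58.7%. Such stability, also without the later run below, was largely fixed in advance, because sites were chosen for a difference between these same libraries. The H3K27ac share at 3 w.p.i. became 62% with a mean of at least 20 in the higher group and 33.6% without Trappc9. The H3K27me3 share at 24 w.p.i. became 34.1% with an absolute log2 ratio of at least 1, where fewer sites enter. Promoter shares moved with the width of a promoter by construction. With 3 kb on each side they were 21% and 21.1% for H3.3, 24.4% and 18.8% for Pu.1, 17.6% and 18.4% for H3K27ac, 28.4% for H3K9me3 at 24 w.p.i., and 31.7%, 33.9% and 27.2% for H3K27me3. With 250 bp they were 6.22% for H3.3 at 24 w.p.i., 9.59% and 7.48% for Pu.1, 5.72% for H3K27ac at 24 w.p.i., 9.64% and 12.6% for H3K9me3 at 3 and 24 w.p.i., and 11.9%, 9.17% and 9.78% for H3K27me3. Scaling by the mean reads per window, added after the data were seen, shifted the median log2 ratio of all sites by between -0.48 and 0.55, and the direction changed at 2 member sites, 1 for H3K27ac and 1, at Gnas with Nespas, for H3K27me3 at 24 w.p.i. Without the later run of 8 w.p.i. libraries, also added then, the shares were 75.4%, 73.5% and 52.5% for H3K9me3 and 63.3% and 58.7% for H3K27me3, and no germline promoter site changed direction.

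No paired analysis was possible because no model was fitted to windows that had already been picked by a test, and a replicate number marks different mice in the groups. The listed windows leave out sites that did not differ, 2 or 3 mice per group cannot reach a small exact p, and the shallow H3K9me3 libraries of DKO mice limit what can be read at 8 w.p.i. Parental alleles, DNA methylation and RNA were not analysed here.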
